A study of Mus musculus with 6 samples.

Results

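Epicardial and mesothelial identity genes were followed in cultured neonatal mouse cardiomyocytes (CMs) treated with cell-permeable α-ketoglutarate (αKG). The set held 10 genes, chosen by name as markers of the cell layer that covers the heart, and all 10 were found among the 20066 genes of the RNA-sequencing (RNA-seq) table: *Wt1*, *Tbx18*, *Aldh1a2*, *Msln*, *Upk3b*, *Upk1b*, *Lrrn4*, *Krt8*, *Krt18* and *Krt19*. CMs came from C57BL/6 pups at P0-1 and were cultured for 96 h with dimethylsulfoxide (DMSO), the solvent, or with αKG, an intermediate of the Krebs cycle, at 100 µM per the labels. Each group had 3 libraries of total RNA. Per the study's methods, cells were dissociated from dissected hearts, and a sample in experiments with neonatal CMs stands for 1 isolation from several hearts. No sort of these cells is described. Nothing in the labels tells whether the 3 libraries of a group came from separate isolations, so p-values measure the spread between these samples. Values are normalized read counts, that is reads per gene divided by a scaling factor of the library.

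The epicardium is a mesothelium, a flat epithelial sheet of mesodermal origin that also lines the pleura and the peritoneum. In the embryo it is marked by the transcription factors WT1 and TBX18, makes retinoic acid through ALDH1A2 and sheds cells that become fibroblasts and mural cells. Mesothelial sheets also carry mesothelin, uroplakins and the simple keratins 8, 18 and 19 as surface and cytoskeletal proteins.

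In αKG replicates 1 and 2, every one of the 10 genes lay above all 3 DMSO libraries. In αKG replicate 3, 7 of the 10 lay below all DMSO libraries, whereas *Tbx18*, *Krt18* and *Krt19* lay above them. The group comparison therefore averaged libraries that went in opposite directions for most of these genes. With limma, 0 of 10 genes passed an adjusted p of 0.05. Over all genes, 2.83% were called higher and 0.952% lower in αKG. Without adjustment 3 of the 10 had a p under 0.05, where 15.7% of all genes were higher at that level. Limma-voom on estimated reads also called 0 of 10, and 338 of the 20066 genes in either direction.

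The libraries were of similar depth, with 3726069 to 4427587 estimated reads in genes, and αKG replicates 1 and 2 were the shallowest. The labelled cell type was visible in its markers: all 14 cardiomyocyte markers were measured, with summed levels of 81050 to 83568 in DMSO and 113957, 117060 and 85559 in αKG replicates 1 to 3. The titin gene *Ttn* alone made up most of this sum and of its rise, with 51569, 54216 and 53157 in DMSO and 80306, 84136 and 55569 in αKG. The median differences of the 14 markers from DMSO were only 0.12, 0.10 and 0.01 on the log2 scale. With limma, 0 of them passed over all libraries. Without αKG replicate 3, 5 rose and 3 fell, where 19.3% of all genes rose and 17.9% fell. The 10 epicardial and mesothelial genes summed to 527, 564 and 586 in DMSO and to 1320, 1288 and 532 in αKG. Fewer cells of a type and less RNA per cell cannot be told apart in such bulk libraries. αKG replicate 3 stood apart from its group well beyond these genes. Its estimated reads differed from those of αKG replicates 1 and 2 with a chi-square of 10.8 and 9.85 per gene, against 1.52 between αKG replicates 1 and 2.

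**Figure D1:**
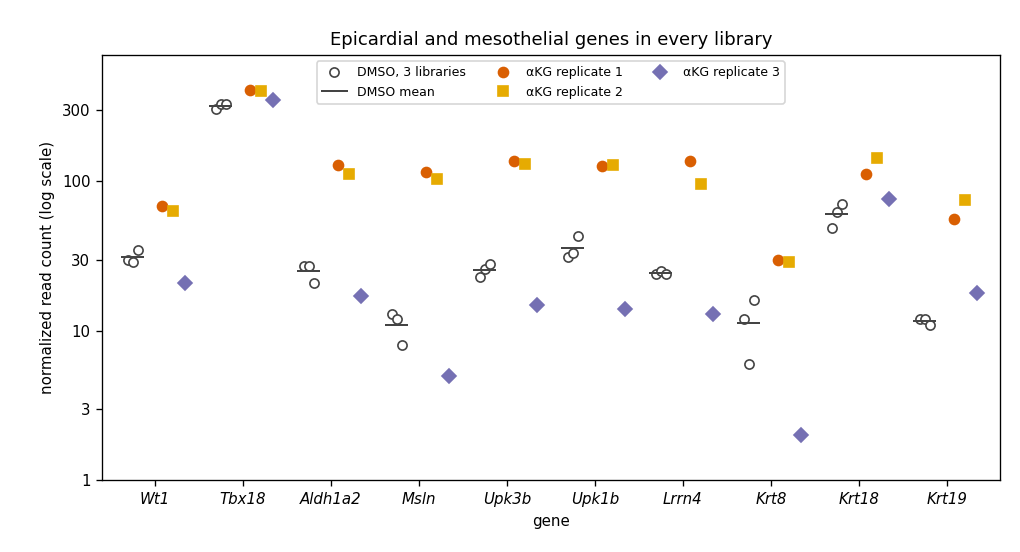
Normalized read count (log scale, y axis) of the 10 genes (x axis) in each library. Open circles are the 3 DMSO libraries, the line is their mean, and filled symbols are the αKG replicates. αKG replicates 1 and 2 lie above every DMSO library for all 10 genes, and αKG replicate 3 lies below them for 7.

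Among the transcription factors, *Wt1* encodes a zinc finger protein needed for formation of the epicardium (ENSMUSG00000016458, GRCm38 chromosome 2, 105126529 to 105173616). It was read at 30, 29 and 35 normalized counts in the DMSO libraries and at 69, 63 and 21 in the αKG libraries. αKG replicates 1 and 2 were at about 2 times the DMSO mean, and replicate 3 was below the lowest DMSO library. The log2 fold change was 0.52 ± 0.40 (SE, n = 3 each, limma adjusted p = 0.411). *Tbx18*, a T-box factor of the epicardium that some mural cells also express (ENSMUSG00000032419, chromosome 9, 87702800 to 87731260), had 306, 332 and 329 in DMSO and 408, 405 and 351 in αKG. All αKG libraries were higher than all DMSO libraries, but by a log2 fold change of only 0.26 ± 0.09 (adjusted p of limma = 0.11). A TEC locus on the other strand, D030062O11Rik, overlaps *Tbx18* and had 3 to 7 counts per library.

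*Aldh1a2* encodes retinaldehyde dehydrogenase 2, which makes retinoic acid (ENSMUSG00000013584, chromosome 9, 71215789 to 71296243). It had 27, 27 and 21 counts in DMSO and 129, 112 and 17 in αKG. αKG replicates 1 and 2 were thus 5.16 and 4.48 times the DMSO mean, and replicate 3 was 0.68 times this mean. The log2 fold change was 1.31 ± 0.62 (limma adjusted p = 0.20).

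*Msln* encodes mesothelin, a surface glycoprotein of mesothelial cells (ENSMUSG00000063011, chromosome 17, 25748613 to 25754378). It had 13, 12 and 8 counts in DMSO, 115 and 104 in αKG replicates 1 and 2, and 5 in αKG replicate 3. The ratios to the DMSO mean were 10.5, 9.45 and 0.455, so that *Msln* had the widest span of the 10 genes in ratio to DMSO. Its log2 fold change over all libraries, 1.83 ± 0.94, came with a limma adjusted p of 0.232.

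The uroplakins are membrane proteins best known from the bladder lining, and *Upk3b* and *Upk1b* are also mesothelial markers. *Upk3b* (ENSMUSG00000042985, chromosome 5, 136038496 to 136046487) had 23, 26 and 28 counts in DMSO and 137, 131 and 15 with αKG (log2 fold change 1.32 ± 0.69, limma adjusted p = 0.237). *Upk1b* (ENSMUSG00000049436, chromosome 16, 38773184 to 38800328) had 31, 33 and 43 in DMSO and 126, 129 and 14 in αKG (0.79 ± 0.69, limma adjusted p = 0.476). Both genes were at 3.53 to 5.34 times the DMSO mean in αKG replicates 1 and 2, and were below the lowest DMSO library in replicate 3. Of the other uroplakin genes looked up, *Upk1a* was near the detection limit, with 3, 1 and 5 counts in DMSO and 2, 4 and 5 in αKG.

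*Lrrn4*, a leucine-rich repeat membrane protein used as a mesothelial marker (ENSMUSG00000043110, chromosome 2, 132868305 to 132880891), had 24, 25 and 24 counts in DMSO and 137, 96 and 13 in αKG. Its 3 DMSO libraries were the closest together of all 10 genes (coefficient of variation 2.37%), and the 3 αKG libraries varied by 77.0%. The log2 fold change was 1.18 ± 0.69 (limma adjusted p = 0.287). The 3 paralogues did not follow it. *Lrrn3* had 28, 19 and 22 in DMSO and 33, 27 and 47 in αKG, *Lrrn2* had 38, 30 and 35 and then 11, 15 and 26, and *Lrrn1* was at 3 to 9 in all libraries. None of them passed the test (limma adjusted p = 0.198, 0.0912 and 0.291).

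Keratins 8 and 18 form a filament pair in simple epithelia, in which keratin 8 is the type II and keratin 18 or 19 the type I partner. *Krt8* (ENSMUSG00000049382, chromosome 15, 101996698 to 102004482) had 12, 6 and 16 counts in DMSO and 30, 29 and 2 with αKG (log2 fold change 0.28 ± 0.82, limma adjusted p = 0.847). *Krt18* (ENSMUSG00000023043, chromosome 15, 102028180 to 102032027) had 49, 62 and 71 in DMSO and 113, 144 and 76 in αKG (0.83 ± 0.24, limma adjusted p = 0.0766). *Krt19* (ENSMUSG00000020911, chromosome 11, 100140810 to 100148665) had 12, 12 and 11 in DMSO and 56, 75 and 18 in αKG (1.78 ± 0.46, limma adjusted p = 0.0599). The type I genes *Krt18* and *Krt19* were above DMSO in all αKG libraries, whereas *Krt8* was at its lowest value in αKG replicate 3. Per exon length, *Krt8* made up 5.42% to 12.8% of the 3 keratins in DMSO, 12.4% and 9.53% in αKG replicates 1 and 2, and 1.51% in replicate 3, where it rests on 2 estimated reads. *Krt7*, a further type II keratin of mesothelium, had 21, 16 and 10 in DMSO and 80, 67 and 10 in αKG. *Krt8* and *Krt18* have many processed pseudogenes, and since reads aligning to more than 1 place were not counted, their levels are uncertain.

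Promoter sequences of 6 of the 10 genes were at hand from RefSeq (GRCm38.p6), and the 250 bases before the start were searched on both strands for letters bound by factors of this cell layer. GGAATG, the core bound by TEAD factors, was found in *Lrrn4* and *Upk3b*, and in 12.6% of all 32851 promoters. AGATAA, bound by GATA factors, was found in *Krt8* and in 9.99% of all. GCGTGGGAG, bound by WT1, and TGAGTCA, bound by AP-1, were found in 0 of 6, and in 0.405% and 4.46% of all. A match is a description of the letters only. The sequences of *Lrrn4* (chr2:132880863-132881112, minus strand) and *Upk3b* (chr5:136038246-136038495, plus strand) are given with the TEAD letters in capitals, which begin 196 and 241 bases before the start, and that of *Aldh1a2* (chr9:71215539-71215788, plus strand), without a match, for its different base composition. The GC content was 59.2% and 60.8% with 5 and 2 CpG pairs for *Lrrn4* and *Upk3b* and 77.6% with 40 CpG pairs for *Aldh1a2*.
Lrrn4: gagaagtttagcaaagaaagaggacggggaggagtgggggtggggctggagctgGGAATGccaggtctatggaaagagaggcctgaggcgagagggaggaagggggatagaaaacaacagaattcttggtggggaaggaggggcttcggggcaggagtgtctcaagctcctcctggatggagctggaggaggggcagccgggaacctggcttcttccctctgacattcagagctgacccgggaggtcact
Upk3b: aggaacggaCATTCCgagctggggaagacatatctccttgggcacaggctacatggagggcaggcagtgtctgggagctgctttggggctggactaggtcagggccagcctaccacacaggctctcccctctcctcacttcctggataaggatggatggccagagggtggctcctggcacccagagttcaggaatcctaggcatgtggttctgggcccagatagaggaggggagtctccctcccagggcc
Aldh1a2: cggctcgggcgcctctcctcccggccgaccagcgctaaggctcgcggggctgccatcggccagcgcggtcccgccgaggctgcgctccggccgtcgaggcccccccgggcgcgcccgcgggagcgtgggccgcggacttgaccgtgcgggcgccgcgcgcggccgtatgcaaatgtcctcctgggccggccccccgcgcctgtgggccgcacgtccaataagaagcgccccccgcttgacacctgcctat

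In total, *Tbx18*, *Krt18* and *Krt19* were the 3 genes whose groups did not overlap, a pattern that 13.7% of all genes showed in the direction of αKG. They were also the 3 with an unadjusted p under 0.05. αKG replicates 1 and 2 lay above DMSO for 10 of 10 members, against 30.4% of all genes. In 6 of 10, *Msln*, *Upk3b*, *Aldh1a2*, *Lrrn4*, *Krt19* and *Upk1b*, both libraries reached at least 2 times the highest DMSO library, which 6.07% of the 13409 genes with a mean of at least 10 did. The median log2 fold change over all libraries was 1.00 for the members and 0.04 for all genes.

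**Figure D2:**
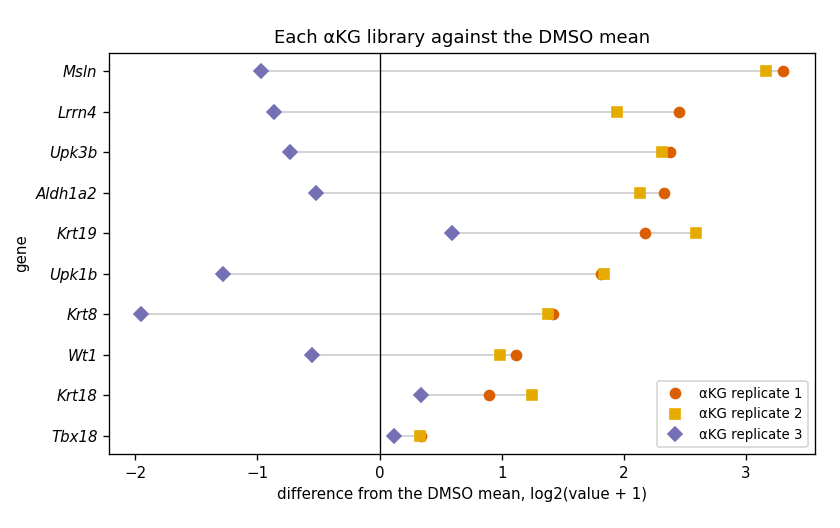
Difference of each αKG library from the DMSO mean on the log2(value + 1) scale (x axis) for the 10 genes (y axis), ordered by αKG replicate 1. Replicates 1 and 2 lie close together, and replicate 3 lies left of 0 for 7 genes and right of it for *Tbx18*, *Krt18* and *Krt19*.

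αKG replicate 3 was then compared with DMSO on its own. The 7 genes below the DMSO range summed to 160, 158 and 175 in DMSO, 743 and 664 in αKG replicates 1 and 2 and 87 in replicate 3. The other 3 summed to 367, 406 and 411, to 577 and 624, and to 445. αKG replicate 3 was below all DMSO libraries for 27% of all genes and above them for 27.3%. The combination seen in 7 of 10 members, replicates 1 and 2 above and replicate 3 below DMSO, was found in 4.4% of all genes, and its mirror image, which no member showed, in 3.97%. A single library has no replicate, so these counts describe that library. The opposite direction of replicate 3 was known when the genes were chosen, so the share of members is no test of it.

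The counts behind the low values of replicate 3 were small. The estimated reads were 22 for *Wt1*, 18 for *Aldh1a2*, 16 for *Upk3b*, 15 for *Upk1b*, 14 for *Lrrn4*, 5 for *Msln* and 2 for *Krt8*. For *Upk1b* the ratio to DMSO was 0.395, with an exact 95% counting interval of 0.214 to 0.680. The interval also left out 1 for *Lrrn4* (0.542, 0.283 to 0.965) and *Krt8* (0.170, 0.0198 to 0.663). It held 1 for the other 4 low genes, such as *Msln* (0.438, 0.134 to 1.13) and *Wt1* (0.662, 0.397 to 1.06), and for *Tbx18*, *Krt18* and *Krt19*. The interval thus lay below 1 for 3 of 10 genes and above 1 for 0 of 10, with no adjustment for the number of genes. The same interval lay below 1 for 7.92% and above 1 for 10.4% of all genes, and for 11.5% and 14.1% of the 13409 genes with a mean of at least 10, which all members reach. Such intervals cover counting error only, not the spread between cultures, and *Krt8* rests on 2 reads.

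Leaving out each library in turn showed how far the group comparison rested on replicate 3. Without it, 10 of 10 genes rose (limma adjusted p = 0.00038 to 0.0348), and the log2 fold changes ran from 0.33 ± 0.06 for *Tbx18* to 3.23 ± 0.24 for *Msln*. Between these lay *Wt1* at 1.05, *Krt18* at 1.08, *Krt8* at 1.40, *Upk1b* at 1.82, *Lrrn4* at 2.19, *Aldh1a2* at 2.23, *Upk3b* at 2.34 and *Krt19* at 2.38. In that fit 19.3% of all genes were higher and 17.9% lower in αKG, and it leaves out the library that was seen to differ. Without any other single library 0 of 10 passed, where only 0 to 152 of all 20066 genes did, so this count says little about the members. In 45 pairs of the 10 genes, Pearson correlations of log2 values over the 6 libraries ran from 0.507 for *Krt8* with *Tbx18* to 0.998, with a median of 0.906, as a description of libraries that share the same step between αKG replicates 1 and 2 and the rest.

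Levels of different genes were compared per exon length, as RPKM, that is estimated reads divided by exon length and by the reads of the library in genes. In DMSO, *Tbx18* was the highest at 16.7, followed by *Krt18* at 10.4, *Upk1b* at 4.18 and *Aldh1a2* at 2.7, and each of these ranges was apart from the next. *Upk3b* (1.77), *Lrrn4* (1.60), *Krt19* (1.54), *Krt8* (1.39) and *Wt1* (1.24) followed, where each range overlapped with that of its neighbour. *Msln* had the lowest mean at 0.857. Its range, 0.608 to 1.01, was apart from that of *Wt1* but overlapped with that of *Krt8*, 0.692 to 2.02. In αKG replicate 1, *Msln* reached 9.04 RPKM and stood sixth, next to *Upk3b* at 9.31 and *Lrrn4* at 8.85, and *Wt1* was the lowest at 2.67. αKG replicate 2 gave 8.15 for *Msln*, 8.90 for *Upk3b* and 2.43 for *Wt1*. In αKG replicate 3, *Tbx18* (18.0) and *Krt18* (12.9) were the highest, *Krt19* followed at 2.34, and *Msln* (0.372) and *Krt8* (0.233) were the lowest.

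Further epicardial and mesothelial genes were read from a separate list, with 17 of 20 measured and *Calb2*, *Dmkn* and *Slpi* not analysed here. Of these, 1 rose and 1 fell over all libraries, where 2.83% of all genes rose and 0.952% fell. Without αKG replicate 3, 12 rose and 2 fell, where 19.3% of all genes rose and 17.9% fell. The median log2 fold change of the 17 over all libraries was 1.11. *Sema3d*, a secreted guidance protein of the epicardium, rose from 172, 158 and 147 to 382, 351 and 210 (log2 fold change 0.93 ± 0.20, limma adjusted p = 0.0416). The gene that fell was *Podxl*, which also marks endothelium, from 151, 132 and 162 to 59, 49 and 97 (-1.16 ± 0.23, limma adjusted p = 0.0362). Both calls were lost without any single library other than αKG replicate 3, with adjusted p-values of limma from 0.148 to 0.271 for *Sema3d* and from 0.155 to 0.255 for *Podxl*. With limma-voom, *Podxl* passed (adjusted p = 0.0417) and *Sema3d* did not (0.0643). The most abundant gene of the list, *Tbx20*, a factor that CMs also express, had 2937 to 3176 counts in DMSO and 2428, 2536 and 3047 in αKG. *Sulf1*, a sulfatase that edits heparan sulfate, had 160, 151 and 146 and then 290, 299 and 165. *Muc16*, the mucin that binds mesothelin, had 5, 5 and 4 counts in DMSO, 72 and 94 in αKG replicates 1 and 2, and 0 in replicate 3. *Tcf21*, a factor of epicardial cells that turn into fibroblasts, did not share this (56, 65 and 63 in DMSO and 58, 62 and 39 in αKG). *Muc16* and *Tcf21* were named after their values were seen.

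Of the retinoic acid pathway, 15 of 17 genes were measured, and 0 passed over all libraries with limma or limma-voom. Of all genes, limma called 2.83% higher and 0.952% lower, and limma-voom called 338 in either direction. At an unadjusted p under 0.05, limma gave 3 higher and 3 lower. At that level 5648 of 20066 genes passed in either direction, of which 3153 (15.7% of all genes) were higher. Without αKG replicate 3, 6 rose and 4 fell after adjustment, where 19.3% of all genes rose and 17.9% fell. By mean normalized count over the 6 libraries, not divided by length, the receptor genes *Rarb*, *Rxra* and *Rara* led the list, followed by *Aldh1a1*. *Rarb* had 398, 370 and 367 counts in DMSO and 353, 375 and 383 in αKG, *Rxra* had 375, 398 and 369 and then 279, 271 and 350, and *Rara* had 381, 356 and 387 and then 229, 199 and 337. *Aldh1a1*, a second retinaldehyde dehydrogenase, went with *Aldh1a2*, with 173, 157 and 165 in DMSO and 522, 495 and 130 with αKG (log2 fold change 0.97 ± 0.43, limma adjusted p = 0.177).

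Markers of other cell types were read beside these genes, and their part in the result was not tested. The counts called in each marker list are to be read against the shares of all genes. Over all libraries 2.83% of all genes rose and 0.952% fell, and without αKG replicate 3, 19.3% rose and 17.9% fell. At an unadjusted p under 0.05, 5648 of 20066 genes passed over all libraries in either direction, of which 3153 (15.7% of all genes) were higher. Fibroblast markers, 12 of 12 measured, summed to 4578 to 4786 in DMSO and to 10075, 9631 and 4688 in αKG. Their median differences from DMSO in the 3 αKG libraries were 0.95, 0.87 and 0.03 on the log2 scale, against 1.99, 1.89 and -0.64 for the 10 epicardial and mesothelial genes. With limma, 0 of the 12 passed over all libraries (8 higher at an unadjusted p under 0.05, 0 with limma-voom after adjustment), and 10 rose without αKG replicate 3.

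Endothelial markers, 10 of 10 measured, had median differences of -1.04, -1.15 and -0.61. Over all libraries 7 of the 10 fell, where 0.952% of all genes did. The others included the receptor genes *Flt1* (485, 510 and 499 counts in DMSO and 733, 719 and 411 in αKG) and *Tek* (65, 71 and 58, and 115, 96 and 54), named after their values were seen. Like most of the epicardial and mesothelial genes, both were above all DMSO libraries in αKG replicates 1 and 2 and below them in replicate 3. Without αKG replicate 3, 7 endothelial markers fell and 2, *Flt1* and *Tek*, rose, where 17.9% of all genes fell and 19.3% rose. The number that fell was 4 with limma-voom or a pseudocount of 0.1, where 338 and 346 of 20066 genes were called in either direction. It was 0 without the mean-variance trend, where 27 genes were called. It was also 0 without any single library other than αKG replicate 3, where 0 to 152 genes were called. In each of these fits 7 endothelial markers were lower at an unadjusted p under 0.05, a level at which the share of all genes was not taken for these fits. Mural markers, 10 of 10 measured, had median differences of 0.28, 0.27 and 0.09, and their sum was 4407 to 4512 in DMSO and 5083, 4708 and 4935 in αKG. Of these, 2 rose over all libraries: *Cnn1*, the calponin of smooth muscle, from 5, 10 and 12 to 119, 167 and 30 (log2 fold change 3.17, adjusted p of limma = 0.0279), and *Cspg4*, a pericyte proteoglycan (0.66, adjusted p of limma = 0.0362). Both calls were lost with limma-voom (0.0945 and 0.0551) and without any single library other than αKG replicate 3, and 4 mural markers rose and 1 fell without that library. At an unadjusted p under 0.05, 3 mural markers were higher and 2 lower, where 5648 of 20066 genes passed, 3153 of them higher. The most abundant, *Abcc9*, had 2114, 2020 and 2047 in DMSO and 1590, 1495 and 2060 in αKG. *Acta2*, smooth muscle actin, had a log2 fold change of 0.08. Macrophage markers, 4 of 10 measured, had sums of 22 to 41 in all libraries, and *Ptprc*, *Adgre1*, *Cd163* and the *C1q* genes were not analysed here. With limma, 0 of the 4 passed over all libraries, and 0 without αKG replicate 3. Genes of the epithelial-mesenchymal transition, 14 of 14 measured, had median differences of 0.35, 0.26 and -0.08. Over all libraries 0 rose and 1, the TGFβ co-receptor gene *Tgfbr3*, fell (limma adjusted p = 0.0465). *Tgfbr3* missed the threshold without any single library other than αKG replicate 3 (limma adjusted p = 0.189 to 0.281) and with limma-voom (0.0551). Without αKG replicate 3, 8 of the 14 rose and 1 fell, where 19.3% of all genes rose and 17.9% fell. For epithelia other than mesothelium, 5 of 9 markers were measured, with a sum of 37 to 55 in DMSO and 67, 59 and 54 in αKG. With limma, 0 of these 5 passed over all libraries, and 2 rose and 0 fell without αKG replicate 3. The E-cadherin gene *Cdh1* among them was at 0 in all DMSO libraries and at 3, 1 and 1 in αKG.

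**Figure D3:**
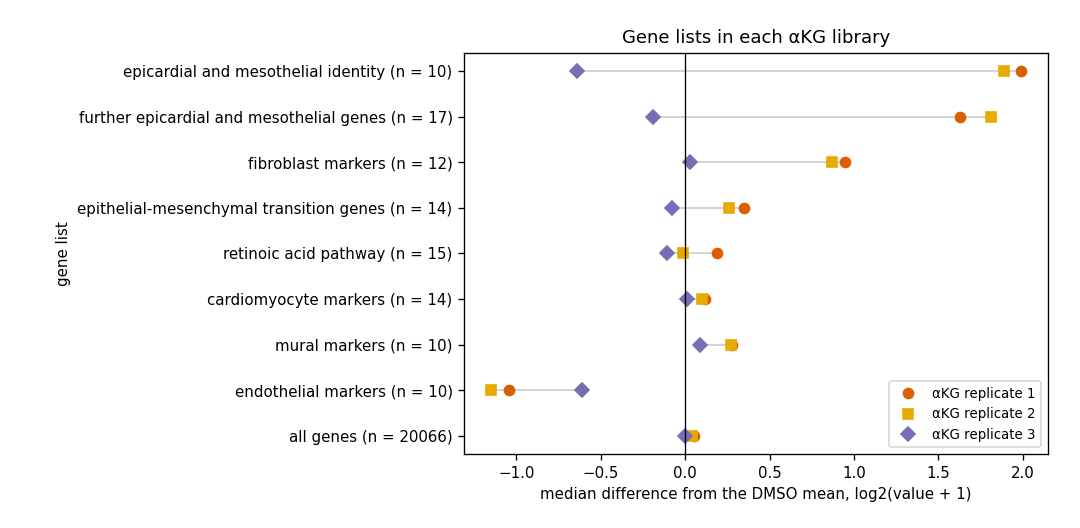
Median difference from the DMSO mean on the log2(value + 1) scale (x axis) of each gene list (y axis, with the number of genes measured) in the 3 αKG libraries. The 10 epicardial and mesothelial genes have the widest span of these lists, from 1.99 in αKG replicate 1 to -0.64 in replicate 3, and the median of the endothelial markers lies left of 0 in all 3.

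Genes with a profile like that of the 10 members were taken from 8294 other genes with a mean of at least 100, by the Pearson correlation over the 6 libraries with the mean standardized profile of the members. The 10 most alike were *Srsf5*, *Anxa3*, *Adamts5*, *Plod2*, *Abca1*, *Rcn1*, *Lratd2*, *Thbs1*, *Hs6st2* and *Itgav*, with correlations from 0.995 to 0.998. *Adamts5*, a metalloproteinase that cleaves aggrecan and versican, had 206, 220 and 224 counts in DMSO and 792, 759 and 184 in αKG. *Anxa3*, an annexin, had 166, 171 and 170 and then 376, 393 and 141. In these abundant genes αKG replicate 3 was at 0.806 to 0.966 times the DMSO mean. It was at 0.176 to 0.680 times in the 7 members below DMSO and at 1.09 to 1.54 times in the other 3. The 7 were taken by that position and the abundant genes were not, so the ranges are not a like comparison.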

How the data were processed

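Total RNA of 6 cultures of neonatal CMs was sequenced, 3 with DMSO and 3 with αKG. Per the submitters' processing notes and the methods, the authors trimmed reads (Trimmomatic 0.39), aligned them to mm10 (GRCm38.p5) with STAR 2.7.10a, counted reads touching exons (featureCounts 2.0.3) without ambiguous or multi-mapping ones, and tested with DESeq2 1.30.1. The deposited values are treated as a score: they are whole numbers whose spacing is that of counts divided by 1 factor per library and rounded, so no count model was run on them directly. Limma-voom, the chi-square values and the counting intervals used reads estimated from them. Each listed gene reaches 2 or more in at least 1 library. The kit keeps strand, but the counting was not stated to use it.

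The value of 1 read was estimated per library from the steps between low values, tested on simulated data, and used for estimated reads. The test was limma 3.58.1 (R 4.3.3) on log2(value + 1) over 20066 genes, with a mean-variance trend, treatment as the only term and Benjamini-Hochberg adjustment. Log2 fold changes are on that scale, which understates changes of low genes. With 3 against 3, an exact permutation test cannot go below p = 0.10, so none was used. Exon lengths are from GENCODE M21. Alternatives were a filter on means under 10, pseudocounts of 0.1 and 5, total and quantile scaling, no variance trend, limma-voom on estimated reads, a replicate block, no adjustment, and each library left out in turn. All 10 members, up to 4 abundant genes of other lists by choice, and the 10 genes most alike by profile were named. *Cnn1* and *Tgfbr3*, which passed the test over all libraries, and *Cdh1* were named outside this rule, as were genes marked above as named after their values were seen. The members and lists were chosen with earlier results of these data known, and support nothing by themselves. DMSO replicates 2 and 3 differed by little more than sampling noise (chi-square of 1.02 per gene, 13077 genes, p = 0.042, against 1.43 and 1.93 for the other DMSO pairs). They differed in *Mki67* (2034 and 1601) and were kept as separate samples, with their average tried as an alternative. The labels' concentration is given; the methods state a different one. Python 3.11.15 was used for reading and plots.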

Additional observations from a re-analysis of the deposited data

How the results depend on the processing

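The number of members past the threshold was 0 in all alternatives but 2: it was 10 without αKG replicate 3, so that leaving out 1 library gave 0 to 10, and 3 at an unadjusted p under 0.05. Their median log2 fold change, 1.00, lay between 0.67 and 2.01 when 1 library was left out and from 0.92 to 1.04 in the other alternatives. Over all genes 759 were called. Without 1 library this count ranged from 0 (αKG replicate 1 or 2) over 3, 4 and 152 (DMSO replicates 2, 3 and 1) to 7466 (αKG replicate 3); it was 346 with a pseudocount of 0.1, 27 without the mean-variance trend, 338 with limma-voom on estimated reads, 46 with the replicate block, 5648 without adjustment and 19 with DMSO replicates 2 and 3 averaged, an alternative chosen after seeing the data. The cause was not tested, and the fits without 1 library have fewer samples, as has the last. Of 150 values of single members, 4 reversed, all for *Krt8*: it was -0.08 with quantile normalization, and -0.29 to 1.40 when 1 library was left out. The titles share replicate numbers between groups, but deviations of same-numbered libraries from the group means had correlations of -0.035, 0.0567 and 0.0172, which does not pair them. The replicate block called 0 of 10 members, 0 of 17 further epicardial and mesothelial genes, 0 of 10 endothelial markers and 0 of 10 mural markers. Depth limits *Krt8*, *Msln* and *Krt19*, which had 6 to 17 estimated reads per DMSO library.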

Other observations

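The combination seen in 7 of the 10 genes was searched for in the whole table, with limits set after their values had been seen: a mean of at least 10, both αKG replicates 1 and 2 at 2 or more times the DMSO mean and above all DMSO libraries, and αKG replicate 3 at no more than 0.75 times this mean and below all DMSO libraries. It was met by 85 of 13409 genes (0.634%), of which 7 were members, 62 protein coding and 13 TEC loci. The genes furthest up were *Muc16*, *Gipr*, the receptor of the gut hormone GIP, and Gm15283, an antisense transcript. *Gipr* had 4, 6 and 6 counts in DMSO, 80 and 97 in αKG replicates 1 and 2, and 3 in replicate 3. *C3*, the central complement component, had 4 in each DMSO library and 32, 50 and 2 in αKG. *Pkhd1l1* had 64, 66 and 66 in DMSO and 365, 352 and 25 in αKG. *Ptprq*, a receptor-type phosphatase, had 38, 28 and 29 in DMSO and 129, 119 and 18 in αKG. The genes of this search were named after their values were seen, and *C3*, *Pkhd1l1* and *Ptprq* were picked by choice. *Muc16* and *C3* are also in the list of further epicardial and mesothelial genes.

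αKG replicates 1 and 2 differed from each other over the 10 members by a chi-square of 1.45 per gene, against 1.52 over 13779 genes. The same measure was 58.7 and 53.4 per member between αKG replicate 3 and replicates 1 and 2, against 10.8 and 9.85 over all genes. The members were chosen with the departure of replicate 3 known, so the larger values per member are a description and no independent result.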
